A study of Mus musculus with 12 samples.

Results

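Keratins are the intermediate filament proteins of epithelial cells, and 9 of their genes were followed here through kidney development and organoid culture: Krt8, Krt18, Krt7, Krt19, Krt20, Krt23, Krt5, Krt14 and Krt15. They were picked by name as epithelial keratins, out of 54 keratin gene symbols and 27286 gene symbols on the array. Only 1 probe was read per gene, the one with the highest mean over the 12 arrays, a choice that mattered for Krt5 and Krt8, which had 2 probes each. The other 45 keratins served as a comparison.

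RNA levels came from one-colour Agilent microarrays of mouse tissue, with 1 sample on each of 12 arrays. Organoids were sampled after 7 days of culture (n = 3 arrays) and at day 0, directly after they were put together (n = 3 arrays). They joined nephron progenitors and ureteric bud, both derived from mouse embryonic stem cells of a mixed B6 and 129SV background, with stromal progenitors isolated from wild-type ICR kidney at E11.5. An E11.5 ICR kidney cultured for 7 days (1 array) was set beside fresh wild-type ICR kidneys (1 array per stage), taken without the ureter at E11.5 and E13.5, at E15.5 and E17.5, and at birth (P0). Cultured tissue was kept on a transwell membrane with Matrigel in medium with fetal bovine serum. The organoids thus differ from the kidneys in genetic background as well as in origin. Nothing in the labels says whether the 3 organoid arrays of a day came from separate cultures, so p-values measure only the spread between these arrays.

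Every value below is a level on a log2 scale, relative to the 75th percentile of its array, so that 1 unit is a doubling, and levels are compared between arrays for 1 probe at a time and never between probes. Between 50.6% and 63.2% of probes were well above background on an array, and no probe was saturated. The unscaled 75th percentile was 201 to 206 on day 7 organoid arrays and 126 to 138 on day 0 organoid arrays, against 211 to 287 on the kidney arrays, and the share of probes well above background was 50.6% to 54.2% on the day 0 arrays. A first slide, scanned together, held the 6 kidneys with replicates 1 and 2 of day 0, and a second slide held the 3 day 7 organoids with replicate 3 of day 0. The kidney identity genes Pax2, Pax8, Six2, Wt1 and Lhx1 and the epithelial genes Cdh1 and Epcam were well above background on all 12 arrays.

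Keratin filaments are built from pairs of a type I and a type II chain. Krt8 (type II) with Krt18 (type I) is the founding pair of simple, single-layered epithelium, including the ureteric bud and its collecting ducts, and Krt7 and Krt19 are added in ductal epithelium. Krt20 is known from intestinal and urothelial cells, where it marks the outermost umbrella cells, and Krt23 is a less studied type I keratin. Krt5 with Krt14 is the pair of the basal layer of stratified epithelium, and Krt15 is a further type I keratin of basal cells. The genes of Krt14, Krt15, Krt19, Krt20 and Krt23 lie on chromosome 11, while those of Krt5, Krt7, Krt8 and Krt18 lie on chromosome 15.

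The 60-base array probes of the 2 basal type I genes and of Krt19 are shown as examples, because every value below was read from a single probe of this length and Krt14 and Krt15 had wide replicate spread. Their positions are those in the scanner files, on mm9 and the minus strand: chr11:100064683-100065288 for Krt14 (606 bases of genome for 60 bases of probe), chr11:99993331-99993390 for Krt15 and chr11:100002392-100002451 for Krt19. Whether related keratin transcripts also bind these probes was not tested.
Krt14 probe: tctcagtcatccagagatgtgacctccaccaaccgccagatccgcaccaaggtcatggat
Krt15 probe: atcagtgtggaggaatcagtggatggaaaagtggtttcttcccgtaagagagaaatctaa
Krt19 probe: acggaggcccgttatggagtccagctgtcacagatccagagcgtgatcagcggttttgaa

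All 9 keratins had higher levels in day 7 than in day 0 organoids and passed the test (limma with Benjamini-Hochberg adjustment over all genes, adjusted p under 0.05), where 27.5% of the 17984 genes tested were called higher and 41.1% lower, 68.7% in all. The differences between the group means ran between 1.83 for Krt14 and at least 7.12 for Krt23, with a median of 4.90 against -0.17 over all genes tested. This median is the same with Krt23 placed at its lower bound. Krt14, Krt15, Krt20 and Krt23 were not well above background on all day 0 arrays and entered the test through the day 7 arrays alone. Such genes could hardly be called lower, so their calls add no support to the count or to the median. Krt5, Krt7, Krt8, Krt18 and Krt19 were well above background on every organoid array. In such bulk samples, a change in the number of cells that make a transcript and a change in the amount per cell cannot be told apart.

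The simple epithelial pair moved by nearly the same amount. The level of Krt8 was 5.46, 5.84 and 5.11 in day 7 organoids, against 3.48, 2.93 and 2.77 in day 0 organoids. The level of Krt18 was 6.79, 7.24 and 6.33 in day 7 organoids, against 4.65, 4.21 and 4.24 in day 0 organoids. Neither pair of groups overlapped. The difference was 2.41 ± 0.24 (SE) for Krt8, a 5.31-fold rise (adjusted p = 0.000214), and 2.42 ± 0.24 for Krt18, a 5.34-fold rise (adjusted p = 0.000209). In the cultured E11.5 kidney the same genes stood at 5.76 for Krt8 and 6.77 for Krt18, against 3.43 and 4.48 in the fresh E11.5 kidney, a 5.03-fold and a 4.89-fold difference with 1 array on each side.

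Krt7 and Krt19, the ductal partners, rose further. The level of Krt7 was 1.41, 2.10 and 0.87 in day 7 organoids, against -1.44, -2.69 and -2.19 in day 0 organoids, an 11.9-fold rise (3.57 ± 0.40, adjusted p = 0.000345). Krt19 stood at 4.27, 4.95 and 3.34 in day 7 organoids, against -1.67, -2.53 and -1.61 in day 0 organoids, a 69.8-fold rise (6.13 ± 0.44, adjusted p = 5.00e-05). The 2 genes differed in how the day 7 organoids compared with fresh kidney. All 3 day 7 values of Krt19 were above its highest fresh kidney value, 2.24 at E17.5, whereas all 3 of Krt7 were below the P0 kidney value of 2.88.

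Krt20 and Krt23 began near or below the detection limit. Krt20 stood at 0.39, 0.04 and 0.06 in day 7 organoids, against -3.16, -5.15 and -5.93 in day 0 organoids, where only replicate 1 was well above background. The rise was 4.91 ± 0.66 (adjusted p = 0.000711), and it moved to 5.70 without day 0 replicate 1 and to 4.32 without day 0 replicate 3. Krt23 was measured at 2.68, 2.82 and 2.63 in day 7 organoids and was not well above background on any day 0 array, with readings of -6.41, -6.45 and -6.73. Against the lowest detectable level on those arrays it was at least 139-fold higher at day 7. The adjusted p of 9.46e-07 belongs to the measured difference of 9.24 ± 0.11, which rests on background readings at day 0. With normexp background correction, which raises the dimmest signals, the differences were 1.68 for Krt20, 4.21 for Krt23 and 2.29 for Krt7, and all 3 calls held. Krt23 also had the tightest day 7 replicates of the 9 keratins, with an SD of 0.10.

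**Figure D1:**
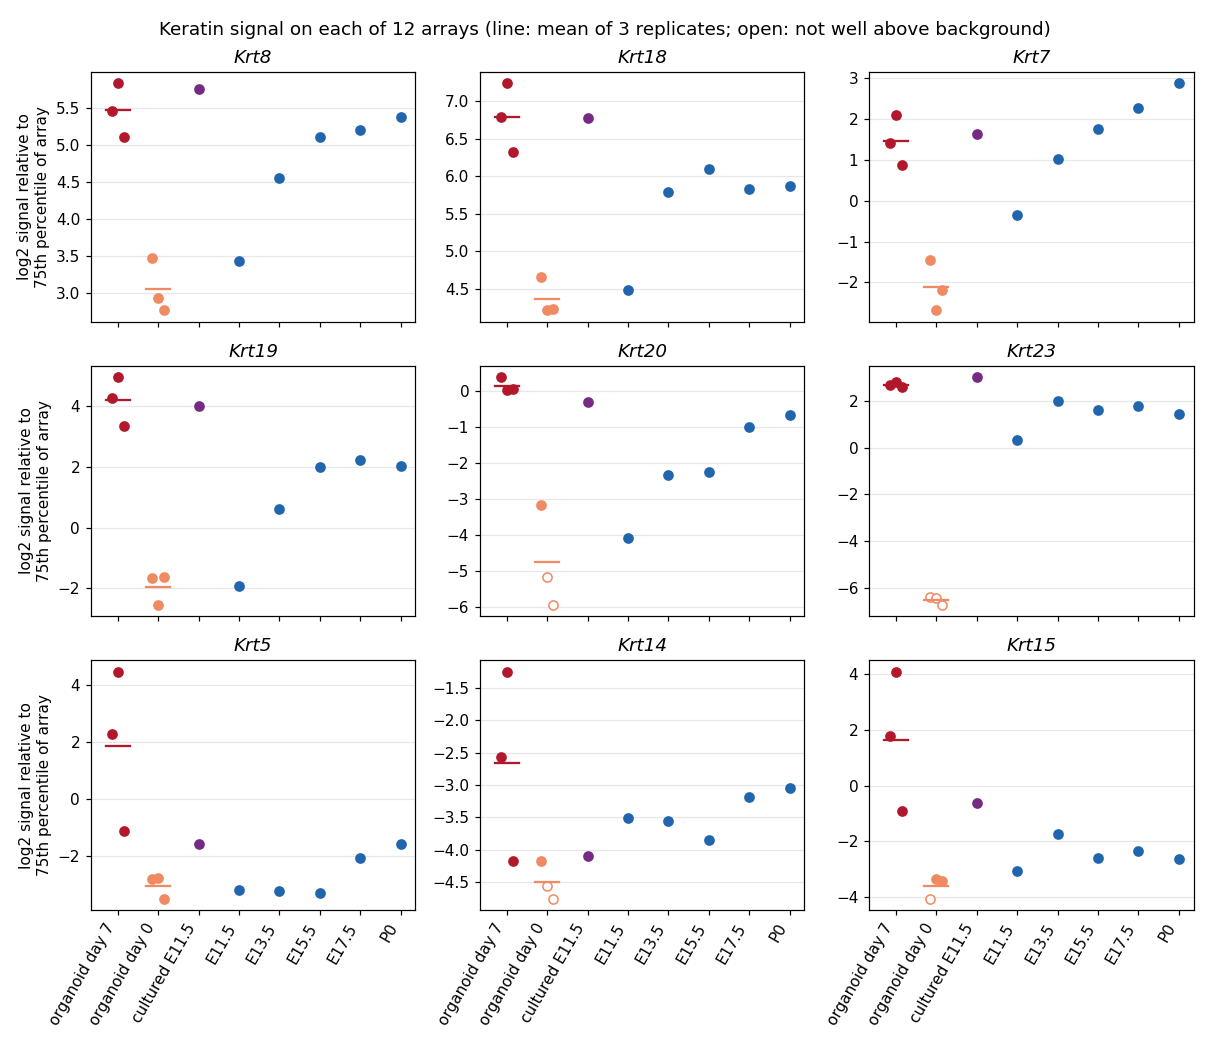
Level of each keratin on each array (log2 signal relative to the array's 75th percentile, y axes differ between panels), with day 7 and day 0 organoids at the left, then the cultured E11.5 kidney and the fresh kidneys by stage. Points are arrays, short lines are means of 3 arrays and open points were not well above background. Krt23 was below 0 only on the 3 day 0 arrays, and the day 7 points of Krt5, Krt14 and Krt15 lie far apart.

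The basal keratins rose with much wider replicate spread. Krt5 stood at 2.27, 4.46 and -1.11 in day 7 organoids, against -2.82, -2.78 and -3.50 in day 0 organoids. Krt15 stood at 1.76, 4.09 and -0.91 in day 7 organoids, against -4.07, -3.35 and -3.41 in day 0 organoids, with replicate 1 of day 0 not well above background. In both genes the lowest day 7 array still exceeded every day 0 array, and the differences were 4.90 ± 1.29 for Krt5 (29.9-fold, adjusted p = 0.0135) and 5.26 ± 1.15 for Krt15 (38.2-fold, adjusted p = 0.00625).

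Krt14, the usual partner of Krt5, was the least certain, with the highest adjusted p of the 9. Its level was -2.57, -1.24 and -4.17 in day 7 organoids, against -4.17, -4.56 and -4.76 in day 0 organoids, where replicates 2 and 3 were not well above background. Day 7 replicate 3 and day 0 replicate 1 had almost the same value, so the groups overlapped, while 29.6% of all genes tested were higher without overlap. The difference of 1.83 ± 0.68 had an adjusted p of 0.0487 and passed in 6 of the 16 settings computed. Leaving out any 1 organoid array except day 7 replicate 3 ended the call, and with normexp background correction the difference was 0.21 (adjusted p = 0.463).

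Single arrays and background correction moved these values. With normexp background correction the difference was 3.22 for Krt5 and 3.11 for Krt15. Without day 7 replicate 2 the difference was 3.61 for Krt5, 4.04 for Krt15 and 1.13 for Krt14, and without day 7 replicate 3 it was 6.40 for Krt5, 6.53 for Krt15 and 2.59 for Krt14. Within the second slide, which held the 3 day 7 arrays and 1 day 0 array, day 7 exceeded day 0 by 5.37 for Krt5, 5.06 for Krt15 and 2.10 for Krt14, but with slide as a term in the fit none of the 3 passed (adjusted p = 0.0641, 0.0562 and 0.137), while the other 6 keratins did. The second probe of Krt5 was dim, well above background on 3 of 12 arrays, and had the same order at day 7, with -2.88, -0.50 and -5.31.

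**Figure D2:**
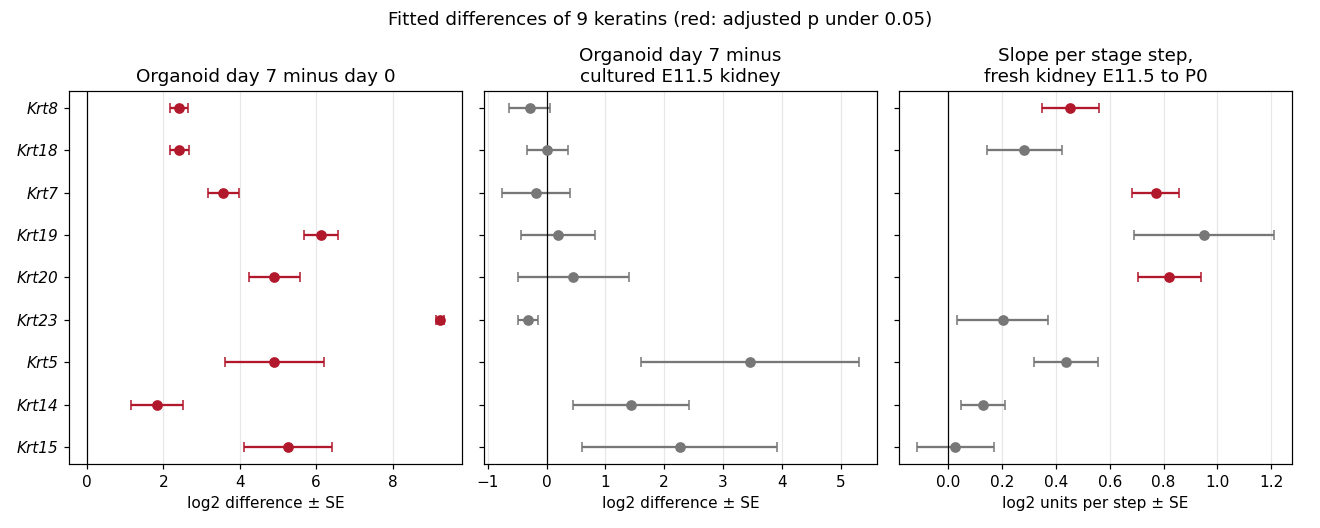
Fitted differences on the log2 scale with standard errors for the 9 keratins: day 7 minus day 0 organoids (n = 3 each), day 7 organoids minus the cultured E11.5 kidney (n = 3 against 1) and the slope per stage step over 5 fresh kidneys. Red points passed an adjusted p of 0.05: 9 in the first panel, 0 in the second and 3 in the third.

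The spread among the day 7 organoids ran in the same order for most keratins. Replicate 2 was above replicate 1 and replicate 1 above replicate 3 for 8 of 9 keratins, the exception being Krt20, against 19.7% of the 17638 genes well above background on all 3 arrays. Replicate 2 was over 1 unit above replicate 3 for 5 of 9 (Krt5, Krt15, Krt14, Krt19 and Krt7), against 0.913% of all genes, and over 3 units above it for 2 of 9 (Krt5 and Krt15), against 0.0624%. The gap was 5.58 for Krt5, 4.99 for Krt15 and 2.93 for Krt14, which is 47.7-fold, 31.9-fold and 7.62-fold. Ranked by this gap, Krt5 came 2nd, Krt15 3rd and Krt14 12th of all genes. The SD of the 3 arrays was 2.81 for Krt5, 2.50 for Krt15 and 1.47 for Krt14, against a median of 0.10 and a 99th percentile of 0.68 over all genes.

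Uroplakins and some genes of stratified lining were wide in the same direction. The uroplakins, which form the plaques of urothelial umbrella cells, had a gap between replicates 2 and 3 of 4.14 for Upk2, 3.72 for Upk3a, 3.15 for Upk1a and 1.79 for Upk3b. Pkp1, a desmosome protein of stratified epithelium, had a gap of 2.63, and Col17a1, a hemidesmosome collagen of basal cells, had one of 2.41. Ivl, of the stratified epithelium list, was well above background on 2 of 3 day 7 arrays and had a gap of 3.64. The rest of that list was narrower, with 1.1 for Sfn, 0.53 for Itgb4, 0.48 for Krt1 and -0.19 for Lor. The bright probes of Krt10 and Trp63 had gaps of 0.20 and 0.03. A dimmer probe of Krt10 stood at -2.53, -1.38 and -2.98 on day 7 replicates 1, 2 and 3. The gene with the largest gap of all, at 5.82, was Ly6d, chosen here after its value was seen. In the ureteric bud and collecting duct list the gaps ran between -0.36 for Ret and 1.39 for Aqp3, with 0.53 for the water channel Aqp2. Their part in the keratin values was not tested.

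Some keratins outside the 9 were detected on just these arrays. Krt4, Krt6a and Krt78, keratins of stratified epithelium, were the only 3 of the 45 others well above background on day 7 organoid arrays alone, and in each case on replicates 1 and 2 and not on replicate 3. Krt4 stood at -2.55 and -0.72 on replicates 1 and 2 and Krt6a at -2.20 and -0.90. They were named after their values were seen.

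The probes of Trp63, which encodes the p63 regulator of basal cells, disagreed. The bright probe used in the fit differed by -0.83 and had a level of 2.33, 2.29 and 2.26 in day 7 organoids, against 3.20, 3.24 and 2.94 in day 0 organoids. A dimmer probe stood at -1.41, 0.37 and -3.01 in day 7 organoids, against -5.16, -6.72 and -6.75 in day 0 organoids, with the same replicate order as Krt5. No direction is drawn for Trp63, although the list counts below take the bright probe, as lower.

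**Figure D3:**
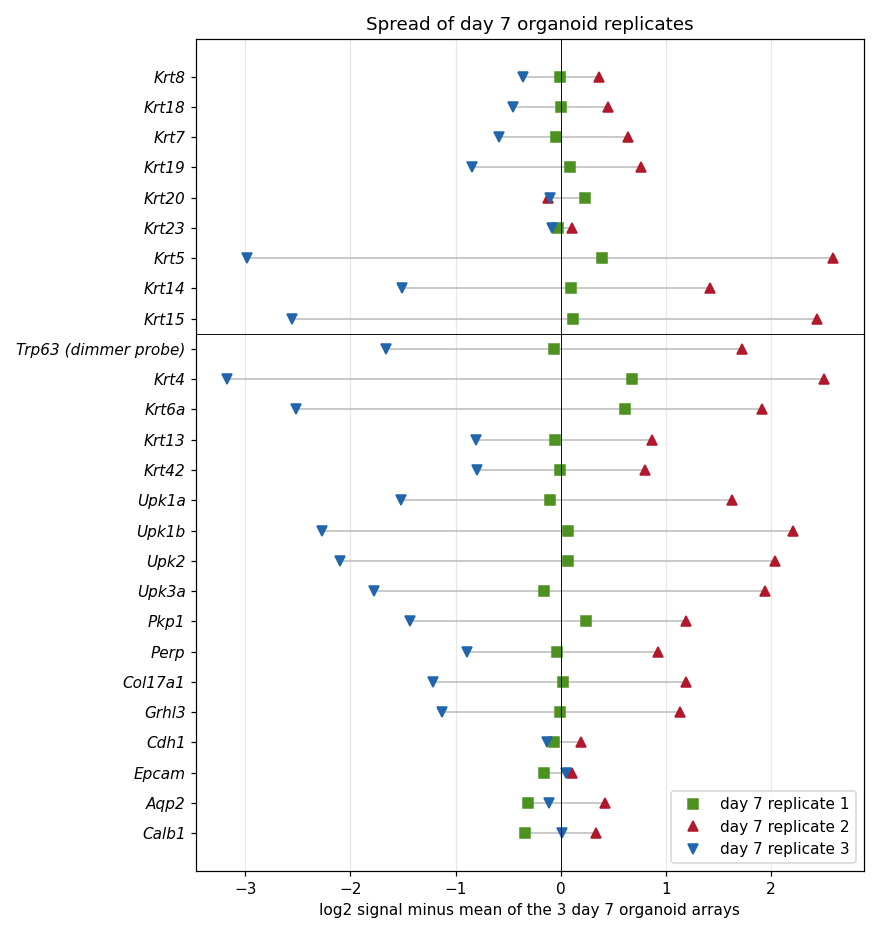
Level of each day 7 organoid array minus the mean of the 3, on the log2 scale, for the 9 keratins (above the line) and, below it, the dimmer Trp63 probe and keratin, uroplakin, junction and duct genes picked with their values known. Replicate 2 (triangles up) is highest and replicate 3 (triangles down) lowest for every keratin of the 9 except Krt20, with gaps from 0.19 for Krt23 to 5.58 for Krt5.

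Day 7 organoids were then set against the E11.5 kidney cultured for the same 7 days, which asks how far the reconstructed tissue resembles cultured native tissue. None of the 9 keratins passed the test in limma, where 4.17% of 18564 genes were higher and 3.12% lower (7.29% in all), and none had an unadjusted p under 0.05. The difference was 0.01 ± 0.35 for Krt18, -0.29 ± 0.35 for Krt8, -0.18 ± 0.58 for Krt7, 0.19 ± 0.63 for Krt19, 0.45 ± 0.95 for Krt20 and -0.32 ± 0.16 for Krt23. For the basal genes it was larger but poorly determined, at 3.46 ± 1.86 for Krt5 (adjusted p = 0.281), 2.26 ± 1.66 for Krt15 (adjusted p = 0.414) and 1.44 ± 0.98 for Krt14 (adjusted p = 0.382). The cultured kidney stood at -1.58 for Krt5, below all 3 day 7 organoids, whereas its Krt15 level of -0.62 and its Krt14 level of -4.10 lay within their range. Such a test with 1 kidney array assumes that it varies like the organoid arrays, and a missed threshold does not show equal levels.

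The cultured kidney itself stood above the fresh kidney of its starting stage for most keratins. The cultured E11.5 kidney exceeded the fresh one by more than 1 unit for 8 of 9 keratins, against 12.5% of 19406 genes, with 1 array on each side and hence no test. The differences were 5.91 for Krt19, 3.80 for Krt20, 2.69 for Krt23, 2.44 for Krt15, 1.98 for Krt7 and 1.61 for Krt5, and -0.59 for Krt14. Its level was above all 5 fresh kidneys for 6 of 9 keratins (Krt8, Krt18, Krt19, Krt20, Krt23 and Krt15; 20.7% of all genes). The 3 day 7 organoid arrays were all above all 5 fresh kidneys for 6 of 9 as well (Krt18, Krt19, Krt20, Krt23, Krt5 and Krt15; 14.7% of all genes).

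Before culture, the day 0 organoids were compared with the fresh E11.5 kidney, and Krt23 was the keratin that differed past the threshold. Krt23 was not well above background in the 3 day 0 organoids, against a level of 0.33 in the fresh E11.5 kidney. That put it at least 26.8-fold lower in the organoids. The adjusted p of 7.28e-05 belongs to the measured difference of -6.86 ± 0.16, and Krt23 entered this test through the 1 kidney array alone. It was the only 1 of 9 keratins called, while 14.8% of 18756 genes were lower and 16.2% higher, 31% in all. Krt7 was lower by 1.76 ± 0.58 without passing (adjusted p = 0.0652), although each day 0 array was below the kidney, and without day 0 replicate 1 both Krt7 (adjusted p = 0.0410) and Krt20 (adjusted p = 0.0382) passed as lower. With normexp background correction Krt20 was instead higher in day 0 organoids, by 0.44 (adjusted p = 0.0308). The remaining differences were between -0.99 for Krt14 and 0.16 for Krt5.

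The culture change was also compared between the 2 tissues, as the day 7 minus day 0 difference of organoids minus the cultured minus fresh difference of E11.5 kidney. It was called for Krt23 alone among the 9, where 7.88% of 19562 genes were higher and 6.47% lower. The estimate was 6.55 ± 0.23 (adjusted p = 0.000950), or at least 4.43 with the day 0 arrays at their lowest detectable level. For Krt8, Krt18 and Krt19 the estimates were small, at 0.08 ± 0.51, 0.13 ± 0.51 and 0.22 ± 0.91. For Krt5, Krt15 and Krt14 the estimates of 3.30 ± 2.67, 2.81 ± 2.38 and 2.43 ± 1.41 had wide errors and did not pass. Krt7, at 1.58 ± 0.84 (adjusted p = 0.246), and Krt20, at 1.11 ± 1.36, did not pass either. All these comparisons share arrays, since the day 7 and day 0 organoids enter more than 1 of them.

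Over development the fresh kidneys showed an early step and then separate courses. Between E11.5 and E13.5, 7 of 9 keratins were higher by more than 1 unit, against 5.90% of 19206 genes, with 1 array each: Krt19 by 2.53, Krt20 by 1.76, Krt23 by 1.68, Krt7 by 1.37, Krt18 by 1.31, Krt15 by 1.30 and Krt8 by 1.13. Krt5 and Krt14 differed by -0.05 each. The same 7 genes stood above their E11.5 level at every later stage, as 23.6% of all genes did. From E11.5 to P0 the difference was over 1 unit for 7 of 9 keratins, against 16.7% of all genes, with 3.94 for Krt19, 3.44 for Krt20 and 3.23 for Krt7 the widest. In this set Krt5 (1.61) took the place of Krt15 (0.43).

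After E13.5 the genes parted. Krt7 was higher at each stage than at the one before, with levels of -0.34, 1.02, 1.77, 2.27 and 2.88 from E11.5 to P0, and Krt8 was too, with 3.43, 4.56, 5.11, 5.20 and 5.38. Krt20 followed with -4.09, -2.33, -2.23, -0.99 and -0.65. Krt18 (4.48, 5.79, 6.09, 5.84 and 5.87), Krt19 (-1.91, 0.62, 2.01, 2.24 and 2.03) and Krt23 (0.33, 2.02, 1.61, 1.79 and 1.46) had their highest fresh value at E15.5, E17.5 and E13.5 in that order of genes. Krt5 was flat until E15.5 and then higher, with -3.19, -3.24, -3.28, -2.08 and -1.57. Krt15 was highest at E13.5, at -1.75, and Krt14 stayed between -3.84 and -3.04.

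A straight line over the 5 stages gave a positive slope for Krt7 (0.77 ± 0.09 per stage step, adjusted p = 0.0109), Krt20 (0.82 ± 0.12, adjusted p = 0.0158) and Krt8 (0.45 ± 0.10, adjusted p = 0.0397), with 11.4% of 20769 genes called higher and 13.2% lower, 24.6% in all. Krt19 (0.95 ± 0.26, adjusted p = 0.0563) and Krt5 (0.44 ± 0.12, adjusted p = 0.0543) did not pass. With 1 array a stage these 3 calls rest on single kidneys: 0 of 9 passed without the P0 kidney and 1, Krt7, without the E17.5 kidney. The second probe of Krt8 had a slope of 0.44 and missed the threshold (adjusted p = 0.0625).

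Across the 8 conditions, day 0 organoids had the lowest mean for 8 of 9 keratins, all but Krt5, whose lowest value was in E15.5 kidney. Shares over all genes were not computed for rankings of condition means, which are a description. Array by array, all 3 day 0 organoids were below all 5 fresh kidneys for 4 of 9 keratins (Krt7, Krt23, Krt14 and Krt15), against 11.7% of 21418 genes. For Krt19 the day 0 mean of -1.94 and the E11.5 kidney level of -1.91 were nearly equal, and with normexp background correction the day 0 organoids lay above the E11.5 kidney for Krt14 (by 0.31), Krt15 (0.26), Krt19 (0.24) and Krt20 (0.44). Day 7 organoids were highest for Krt18, Krt19, Krt20, Krt5, Krt14 and Krt15, the cultured kidney for Krt8 and Krt23, and P0 kidney for Krt7. For Krt18, Krt19 and Krt20 the cultured kidney followed the day 7 organoids by less than the SE of the difference.

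Condition means of Krt8, Krt18, Krt19 and Krt20 were alike. Pearson's r over the 8 condition means is given as a description because the points share arrays and a common day 0 low. It was 0.98 between Krt18 and Krt19, 0.95 between Krt8 and Krt18, and 0.88 between Krt5 and Krt15, while Krt5 and Krt7 had 0.34. Krt20 had 0.96 with Krt8, 0.93 with Krt18 and 0.96 with Krt19. Krt7 had 0.76 with Krt18 and 0.78 with Krt19, much as the basal Krt15 had with them (0.79 and 0.77). With Krt8 and Krt20, however, Krt7 had 0.91 and 0.85, above the 0.63 and 0.74 of Krt15. Among 5012 genes with a wide span of condition means, the nearest to Krt19 were Krt42 (0.997), Nfix (0.996) and Krt13 (0.994), so 2 of its 3 nearest were keratins. The nearest to Krt7 were Evpl (0.996), a cornified envelope and desmosome protein, Wwc1 (0.996) and Nmi (0.996). The nearest to Krt8 were Wnt7b (0.994), a Wnt ligand of the ureteric epithelium, D630010B17Rik (0.994) and Ripk4 (0.991), a kinase of keratinocyte differentiation.

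For the other members the nearest genes were Cdc42ep2, Egln3 and Rarres2 for Krt18 (0.983 to 0.987), Col6a4, Cx3cl1 and Bicdl2 for Krt20 (0.993 to 0.996), and Tmod1, Hkdc1 and Plekhg6 for Krt23 (0.987 to 0.990). Krt5 was nearest to Bdnf, Ccl17 and Ccn4 (0.969 to 0.983) and Krt15 to Fbln2, Inhba and 4933407L21Rik (0.967 to 0.975). For Krt14 the values were lower, with 0.897 for 1700001J03Rik and 0.894 for Klhl30.

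The other keratins were called in both directions. Of 45, 18 were well above background on no array, and 18 could be tested between day 7 and day 0 organoids, of which 5 rose, 9 fell and 4 did not pass, with a median difference of -0.36. The whole array had 27.5% higher, 41.1% lower and a median of -0.17, so these counts are near the background. Among the 6 brightest on average, Krt85, a hair keratin, rose by 1.32 ± 0.16 (adjusted p = 0.000443), although its 2 other probes differed by -0.75 and 0.05. Krt16 (-1.11 ± 0.11, adjusted p = 0.000166), Krt10 (-0.42 ± 0.10, adjusted p = 0.0101) and Krt79 (-0.28 ± 0.08, adjusted p = 0.0148) fell, and Krt222 (0.03 ± 0.16) and Krt73 (-0.22 ± 0.17) did not pass. For Krt10, the companion of Krt1 in the upper epidermis, a second, dimmer probe differed by 2.10 in the other direction.

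Krt42 and Krt13, the 2 keratins closest to Krt19, were among the 5 that rose. Krt42 stood at 2.16, 2.98 and 1.37 in day 7 organoids, against -2.86, -3.29 and -3.26 in day 0 organoids, a 39.6-fold rise (5.31 ± 0.38, adjusted p = 5.19e-05). Krt13, a keratin of internal stratified lining and urothelium, stood at -0.80, 0.12 and -1.55 in day 7 organoids, against -3.39, -3.21 and -3.17 in day 0 organoids, a 5.72-fold rise (2.52 ± 0.39, adjusted p = 0.00137). Both groups were apart in either gene, and the day 7 replicates had the order seen for Krt19.

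Filament anchors at the cell border rose with the keratins. Of 8 desmosome plaque genes 7 rose and 1, Pkp3, fell, with a median difference of 2.67. Of all genes tested, 27.5% were higher and 41.1% lower. Pkp1 was at least 13.0-fold higher (adjusted p = 0.000646), Perp rose by 4.35 ± 0.42 (adjusted p = 0.000169), desmoplakin (Dsp), which ties keratin filaments to the junction, by 3.17 ± 0.16 (adjusted p = 1.30e-05) and Evpl by 2.89 ± 0.26 (adjusted p = 0.000126). Against the cultured kidney 2 of the 8 desmosome genes, Pkp2 and Jup, were called higher in day 7 organoids and 0 lower. In that comparison 4.17% of all genes were higher and 3.12% lower.

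Among 14 epithelial transcription factors 11 rose, 2 fell and 1 did not pass, where 27.5% of all genes were higher and 41.1% lower. The Ets factor Elf3 rose by 3.98 ± 0.21 (adjusted p = 1.51e-05). The Ets factor Ehf (adjusted p = 7.07e-05), Foxa1, a pioneer factor of endodermal and urothelial cells (adjusted p = 0.000755), and Grhl3, a grainyhead factor of surface epithelium (adjusted p = 0.00214), rose as well. Their measured differences of 5.10 ± 0.40 for Ehf, 6.22 ± 0.84 for Foxa1 and 3.72 ± 0.63 for Grhl3 rest in part on background readings, since Ehf was well above background on 2 of 3 day 0 arrays and Foxa1 and Grhl3 on 1 of 3. Of 11 general epithelial genes 9 rose, 1 fell and 1 did not pass, beside the same shares of all genes. Cdh1, which encodes E-cadherin, rose by 2.55 ± 0.19, Cdh16 by 3.50 ± 0.14, St14 by 2.39 ± 0.12 and Muc1 at least 12.1-fold.

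Genes of cell types that carry these keratins were read against the 27.5% of all genes called higher and 41.1% called lower. A gene not well above background on all 3 day 0 arrays entered this comparison through the day 7 arrays alone. Such a gene could hardly be called lower, and its call gives a list no support. That holds for every gene with an "at least" fold. In the urothelium list 4 of 4 tested genes rose, with Upk3a at least 42.7-fold, Upk2 at least 9.30-fold, Upk3b at least 4.16-fold and Upk1a 10.1-fold higher, while Upk1b was not tested. In the ureteric bud and collecting duct list 8 of 9 rose and 1 fell, with Avpr2 at least 8.41-fold, Aqp3 8.89-fold, Ret 5.54-fold and Aqp2 4.10-fold higher. In the tubular injury list 6 of 7 tested genes rose and 1 did not pass. Those that rose included Spp1 (at least 66.9-fold), Lcn2 (16.2-fold), Clu (13.4-fold) and Cd44 (1.80-fold). Havcr1, also listed, was well above background on none of the 12 arrays and was not tested. The P0 kidney stood above the day 7 mean for Spp1 (2.55 against 1.65) and Clu (6.04 against 5.88). It stood below that mean for Lcn2 (0.69 against 1.66) and Cd44 (-0.45 against 0.55). In the stratified epithelium list 2 of 7 rose (Col17a1 at least 3.35-fold and Itgb4 10.2-fold), 4 fell, among them Lor by 1.81 and Krt1 by 0.59 on the log2 scale, and 1 did not pass, so that the share higher was near that of all genes. Of the 4 that fell, Krt10 and Trp63 have probes that disagree.

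Some markers of other tissues were also called higher at day 7 than at day 0, where 27.5% of all genes were higher and 41.1% lower. In the mesothelium list 3 of 3 tested genes rose (Msln at least 21.5-fold, Gpm6a 5.93-fold, and Upk3b), in the endoderm list 4 of 5 (Foxa1, Afp, Ttr at least 8.83-fold and Sox17 at least 11.4-fold), and in the trophoblast list 2 of 3 (Elf5 10.1-fold, and Tfap2c), with the trophoblast regulators Cdx2 and Hand1 well above background on none of the 12 arrays. Afp and Tfap2c were well above background on 1 of 3 day 0 arrays and get no fold. Msln, Upk3b, Foxa1, Afp, Ttr, Sox17 and Tfap2c all entered through the day 7 arrays alone. Their calls therefore give these lists no support. Lrrn4, of the mesothelium list, was not well above background on any organoid array and was not tested. Fresh kidneys reached higher levels of several named genes than the day 7 mean. The highest fresh level was 4.56 for Afp against 0.94, 1.93 for Sox17 against -0.79 and 1.53 for Gpm6a against -1.22. It was 1.52 for Elf5 against 0.41, 0.85 for Foxa1 against 0.46 and 0.48 for Msln against 0.01. Tfap2c went the other way, at -2.92 against -1.38. Among kidney identity genes, Lhx1 was 7.02-fold, Pax8 4.94-fold and Pax2 2.20-fold higher, while Six2 and Wt1 did not pass. The part of any of these cell types in the keratin rise was not tested.

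The remaining intermediate filaments split. Of 8 listed, 4 rose, 2 fell and 2 did not pass, where 27.5% of all genes were higher and 41.1% lower. The nuclear lamin Lmna rose by 1.89 ± 0.13 (adjusted p = 3.61e-05), whereas the neurofilaments Nefm and Nefl fell by 5.10 ± 0.19 (adjusted p = 5.00e-06) and 2.34 ± 0.37 (adjusted p = 0.00148). Prph, a filament of peripheral neurons, was called higher at day 7 but was not well above background on any day 0 array and gets no fold. It was 3.90 ± 0.21 lower in day 7 organoids than in the cultured kidney (adjusted p = 0.000565), at -4.54, -4.56 and -4.56 against -0.66.

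The stretch of 250 bases before the start of 7 of the 9 genes was read from RefSeq (GRCm38.p6). The reason was that all 9 had higher means in day 7 than in day 0 organoids, although their courses differed elsewhere. Searched on both strands, AGGAAG, a letter string bound by Ets factors such as Ehf and Elf3, was in 3 of 7 (Krt7, Krt8 and Krt20) against 29.5% of 32851 promoters. GCCNNNGGC, an AP-2 string, was in 2 of 7 (Krt7 and Krt18) against 13.7%, GGGCGG, the GC box, in 1 of 7 (Krt7) against 32.7%, and TATAAA in 1 of 7 (Krt20) against 12.4%. None of the 7 held TGANTCA (AP-1, 6.75%), AACCNGTT (grainyhead-like, 1.79%) or TGTTTAC (Foxa, 3.17%) in this window. None of these shares was tested, and a match is only a match of letters. Krt7, Krt18 and Krt20 are shown, 5′ to 3′ toward the gene, because between them they hold every string that was found. Matches are in capitals, and 1 of the 4 GC boxes of Krt7 overlaps its first AP-2 string. Their positions are chr15:101412153-101412402 (plus strand), chr15:102027966-102028215 (plus strand) and chr11:99438154-99438403 (minus strand).
Krt7 promoter: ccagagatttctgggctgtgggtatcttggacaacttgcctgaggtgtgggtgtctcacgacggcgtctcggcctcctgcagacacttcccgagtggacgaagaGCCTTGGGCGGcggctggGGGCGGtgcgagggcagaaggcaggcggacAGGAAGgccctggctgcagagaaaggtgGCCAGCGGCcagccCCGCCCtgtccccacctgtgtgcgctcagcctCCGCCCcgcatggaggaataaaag
Krt18 promoter: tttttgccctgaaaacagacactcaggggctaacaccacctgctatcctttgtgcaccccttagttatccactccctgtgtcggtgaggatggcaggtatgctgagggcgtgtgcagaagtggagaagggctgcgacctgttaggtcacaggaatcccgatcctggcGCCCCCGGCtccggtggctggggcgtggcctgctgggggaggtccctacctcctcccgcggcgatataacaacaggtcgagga
Krt20 promoter: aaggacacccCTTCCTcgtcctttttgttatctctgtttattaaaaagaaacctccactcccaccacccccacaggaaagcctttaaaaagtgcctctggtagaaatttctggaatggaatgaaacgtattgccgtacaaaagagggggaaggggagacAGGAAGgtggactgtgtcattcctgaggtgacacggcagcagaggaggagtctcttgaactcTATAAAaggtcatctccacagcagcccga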

How the data were processed

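Agilent one-colour arrays of 12 samples were scanned and read out by the authors. Each deposited array holds processed signal intensity after background subtraction, by Feature Extraction 11.5.1.1 and protocol GE1_1105_Oct12 per the file headers, although the submitters' processing notes name version 10.7.3.1. The deposited table of normalized values was an alternative. Set against the scanner files it held log2 values scaled like those here and not centred by gene (SD of the difference at most 0.0064 on any array), with column medians of -4.03 to -3.66.

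From the deposited intensity of 62976 spots per array, outlier spots were dropped, spots of a probe averaged, log2 taken and each array's 75th percentile over all probes subtracted. Genes were named through the probes' accessions or symbols in RefSeq, and 5037 probes kept the file's name. The brightest probe on average stood for a gene. A gene was tested when well above background on all arrays of a group in the comparison, or on any kidney for the stage slope. Fits used limma 3.58.1 in R 4.3.3 over all genes (6 organoid arrays, 8 with E11.5 kidneys, or 5 stages), with Benjamini-Hochberg adjustment, calls at an adjusted p under 0.05, and were tested on simulated data. A level below background in 1 group gave "at least" folds against the lowest detectable signal per array, with the measured means kept beside it. The adjusted p is that of the measured difference and not of such a fold. The number of arrays limits the precision.

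All 9 members were named. So were the 6 brightest other keratins, up to 4 called genes per list with the largest non-overlapping difference, and 3 nearest genes per member. Some genes that this rule names are not reported here. Members and lists were chosen with earlier results of these data known, so their calls are a description and no independent support. Alternatives were normexp, quantile and median scaling, the deposited table, mean of probes, the background filter, trend and robust variance, slide, replicate number, leaving out arrays and, added after seeing the data, the other probe of Krt5 and Krt8.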

Additional observations from a re-analysis of the deposited data

Results flagged for a closer look

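Krt23 was the 1 keratin whose culture change differed between organoids and E11.5 kidney by a test of the difference itself. The change was larger in organoids by 6.55 ± 0.23 on the log2 scale (limma adjusted p = 0.000950), or by at least 4.43 with the day 0 arrays at their lowest detectable level. It rests on 3 day 0 organoid arrays on which Krt23 was not well above background, against 0.33 in the fresh E11.5 kidney, and on 1 array each of fresh and cultured kidney. With normexp background correction it was 1.64, and with slide as a term 6.75, and the call held under both.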

How the results depend on the processing

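The numbers of keratins called stayed within 1.5 times of those reported in 70 alternative counts and moved further in 9. Of the values of single keratins, 593 kept direction and side of the threshold, 24 lost a call, 11 gained one and 27 changed direction. With normexp background correction, 2 keratins were called between day 0 organoids and E11.5 kidney (Krt20 higher, Krt23 lower) and 1 (Krt23, lower) between day 7 organoids and cultured kidney. Requiring detection on all arrays of a comparison left 5 keratins for the organoids, of which 5 were called between day 7 and day 0 and 0 in the comparison of culture changes, and gave 5 stage slopes, as did trend and robust variance. Leaving out 1 array gave 8 to 9 calls for day 7 against day 0, 1 to 3 for day 0 against E11.5 kidney (3 without day 0 replicate 1), 0 to 0 for day 7 against cultured kidney, 1 to 1 for the comparison of culture changes and 0 to 3 for the stage slope. Without the P0 kidney 304 genes of the whole array had a rising slope, against 2372. With slide as a term, 126 genes were higher in day 7 organoids than in cultured kidney, against 774, and with normexp 7199 were higher in day 0 organoids than in E11.5 kidney, against 3046. The other probe of Krt5 and Krt8, an alternative chosen after seeing the data, gave 8 calls at day 7, Krt5 not being testable. Slide could not be a term for the stages, which share 1 slide.

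Directions turned mostly for small differences. For day 0 against E11.5 kidney, normexp gave 0.31 for Krt14, 0.26 for Krt15, 0.24 for Krt19 and, called, 0.44 for Krt20, and Krt19 was 0.0158 with quantile normalization and 0.0662 with median scaling. For day 7 against cultured kidney, Krt18 was -0.0793 with normexp and -0.0125 with quantile normalization, Krt7 was 0.0116 with median scaling, and with slide Krt19 was -0.30 and Krt8 0.15. For the comparison of culture changes, Krt19 was -0.11 with normexp and with slide, and Krt20 was -0.0331 with normexp. The stage slope of Krt15 was -0.0334 with normexp. Leaving out 1 array moved Krt19 between -0.19 and 0.27 for day 0 against E11.5 kidney. For day 7 against cultured kidney it moved Krt18 between -0.21 and 0.24, Krt19 between -0.19 and 0.61 and Krt7 between -0.50 and 0.12, the low values without day 7 replicate 2 and the high ones without replicate 3. For the comparison of culture changes it moved Krt19 between -0.16 and 0.64, Krt18 between -0.0983 and 0.36 and Krt8 between -0.11 and 0.29. The stage slope moved between -0.24 and 0.13 for Krt15, -0.0018 and 0.43 for Krt18, and -0.15 and 0.40 for Krt23, each lowest without the E11.5 kidney. The causes were not tested.

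Same-numbered day 0 and day 7 arrays did not deviate together (correlations of -0.05, -0.21 and -0.04), so the numbers do not pair them. With the replicate number as a block 9 keratins were called.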
